A study of Mus musculus with 11 samples.

Results

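The genes encoding matrix metalloproteinases (MMPs) *Mmp2*, *Mmp3*, *Mmp7*, *Mmp8*, *Mmp9*, *Mmp10*, *Mmp12*, *Mmp13* and *Mmp14* and the tissue inhibitor *Timp1* were examined in the skin and small intestine of mice with psoriasis-like dermatitis. They were selected by symbol and are 10 of the 45777 genes of the table. BALB/c mice, female or male and 8 to 10 weeks old, were shaved and received 62.5 mg of cream per day on the back and right ear for 5 to 8 days. The cream was Vaseline in control mice and contained 5% imiquimod (IMQ), which activates the endosomal RNA sensor TLR7, in IMQ-treated mice. RNA sequencing gave 3 control and 3 IMQ libraries of skin (replicates 1 to 3 and 4 to 6) and, of small intestine, 3 control libraries and 2 IMQ libraries (replicates 7 to 9, and 10 and 11). The days of treatment of each mouse and which tissues came from the same mouse were not stated, so the p-values measure only the spread between these libraries.

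MMPs are zinc-dependent proteases that cleave collagens, elastin, other matrix proteins and many cell surface and secreted proteins. Most are secreted as inactive proenzymes whose propeptide must be removed, and they are blocked by tissue inhibitors of metalloproteinases (TIMPs). In the skin they act in hair cycling, leukocyte entry and the migration of keratinocytes over wounds, whereas in the small intestine matrilysin activates the defensins of Paneth cells. Transcripts do not show how much active protease is present.

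Of the 10 genes, 6 lay in 1 cluster of 10 MMP genes that spans 427 kb of chromosome 9 (GRCm38.p6), from 7272514 to 7699585, in the order *Mmp13*, *Mmp12*, *Mmp1b*, *Mmp3*, *Mmp1a*, *Mmp10*, *Mmp8*, *Mmp27*, *Mmp20* and *Mmp7*. The other members were *Mmp2* (chr8:92827290-92853421), *Mmp9* (chr2:164940326-164955850), *Mmp14* (chr14:54431598-54442456) and *Timp1* (chrX:20870166-20874737). The promoters of the 6 members of the cluster are shown because these neighbours had different levels and different log2 fold changes. Each sequence is RefSeq's plus strand of GRCm38.p6 and runs from 100 bases before to 20 bases after the start of transcription. Capitals mark TGANTCA, a motif of AP-1, the dimer of Fos and Jun proteins long known to drive inducible MMP transcription.
Mmp13: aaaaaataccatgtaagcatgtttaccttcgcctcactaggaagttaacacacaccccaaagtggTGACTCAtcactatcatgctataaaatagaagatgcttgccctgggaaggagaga
Mmp12: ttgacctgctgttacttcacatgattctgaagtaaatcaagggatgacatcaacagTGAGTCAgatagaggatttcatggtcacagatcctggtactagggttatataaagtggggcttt
Mmp3: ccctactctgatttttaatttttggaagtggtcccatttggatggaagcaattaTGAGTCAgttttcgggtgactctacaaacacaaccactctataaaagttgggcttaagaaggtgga
Mmp10: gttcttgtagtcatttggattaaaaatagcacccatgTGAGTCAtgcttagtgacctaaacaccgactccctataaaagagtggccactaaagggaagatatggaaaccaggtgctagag
Mmp8: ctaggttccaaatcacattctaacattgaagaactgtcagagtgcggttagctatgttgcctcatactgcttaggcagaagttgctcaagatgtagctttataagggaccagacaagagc
Mmp7: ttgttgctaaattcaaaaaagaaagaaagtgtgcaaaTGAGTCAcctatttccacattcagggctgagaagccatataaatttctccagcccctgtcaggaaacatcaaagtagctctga
The windows were chr9:7272414-7272533 for *Mmp13*, chr9:7347274-7347393 for the second of the *Mmp12* starts, chr9:7445722-7445841 for *Mmp3*, chr9:7502242-7502361 for *Mmp10*, chr9:7558329-7558448 for *Mmp8* and chr9:7691990-7692109 for *Mmp7*. The motif began at -35 from the start in *Mmp13*, -44 in *Mmp12*, -46 in *Mmp3* and -63 in both *Mmp10* and *Mmp7*, whereas these letters were not in the window of *Mmp8*. It was searched on both strands, on which it reads the same, in windows from 250 bases before to 50 bases after each start. Of all 32851 RefSeq promoter windows of this length 7.81% held it. In the cluster 8 of 12 windows did (8 of the 10 genes), and among the members 5 of 10 (5 of the 8 with a window). *Mmp12* and *Mmp7* had 2 windows each, of which only 1 held the motif. A match describes the letters only and is no evidence of binding.

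The leading MMP genes of control skin and control small intestine were not the same. Levels between genes are compared as FPKM, the fragments scaled by transcript length and library size that were deposited with the counts. In control skin, *Mmp2* had 149.9 ± 31.0 FPKM (SD, n = 3), *Mmp14* 102 ± 38.2, *Mmp3* 34.8 ± 10.4 and *Timp1* 17.6 ± 11.2. *Mmp12* followed with 4.28 ± 1.93 FPKM and *Mmp9* with 2.32 ± 0.834, and the other 4 members were below 1. The ranges of *Mmp2* and *Mmp14*, of *Mmp3* and *Timp1*, and of *Mmp12* and *Mmp9* overlapped. In control small intestine, *Mmp7* led with 159 ± 20.6 FPKM (n = 3), before *Mmp10* with 15.9 ± 6.79, *Mmp2* with 13.5 ± 1.15 and *Mmp14* with 9.84 ± 1.48. *Mmp9* had 3.25 ± 0.706 FPKM and *Mmp13* 2.51 ± 0.480, while *Timp1* (0.559 ± 0.312), *Mmp3* (0.304 ± 0.0603), *Mmp12* (0.122 ± 0.0426) and *Mmp8* (0.0228 ± 0.00152) were scarce. Here the ranges of *Mmp10* and *Mmp2*, of *Mmp9* and *Mmp13*, and of *Timp1* and *Mmp3* overlapped.

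**Figure D1:**
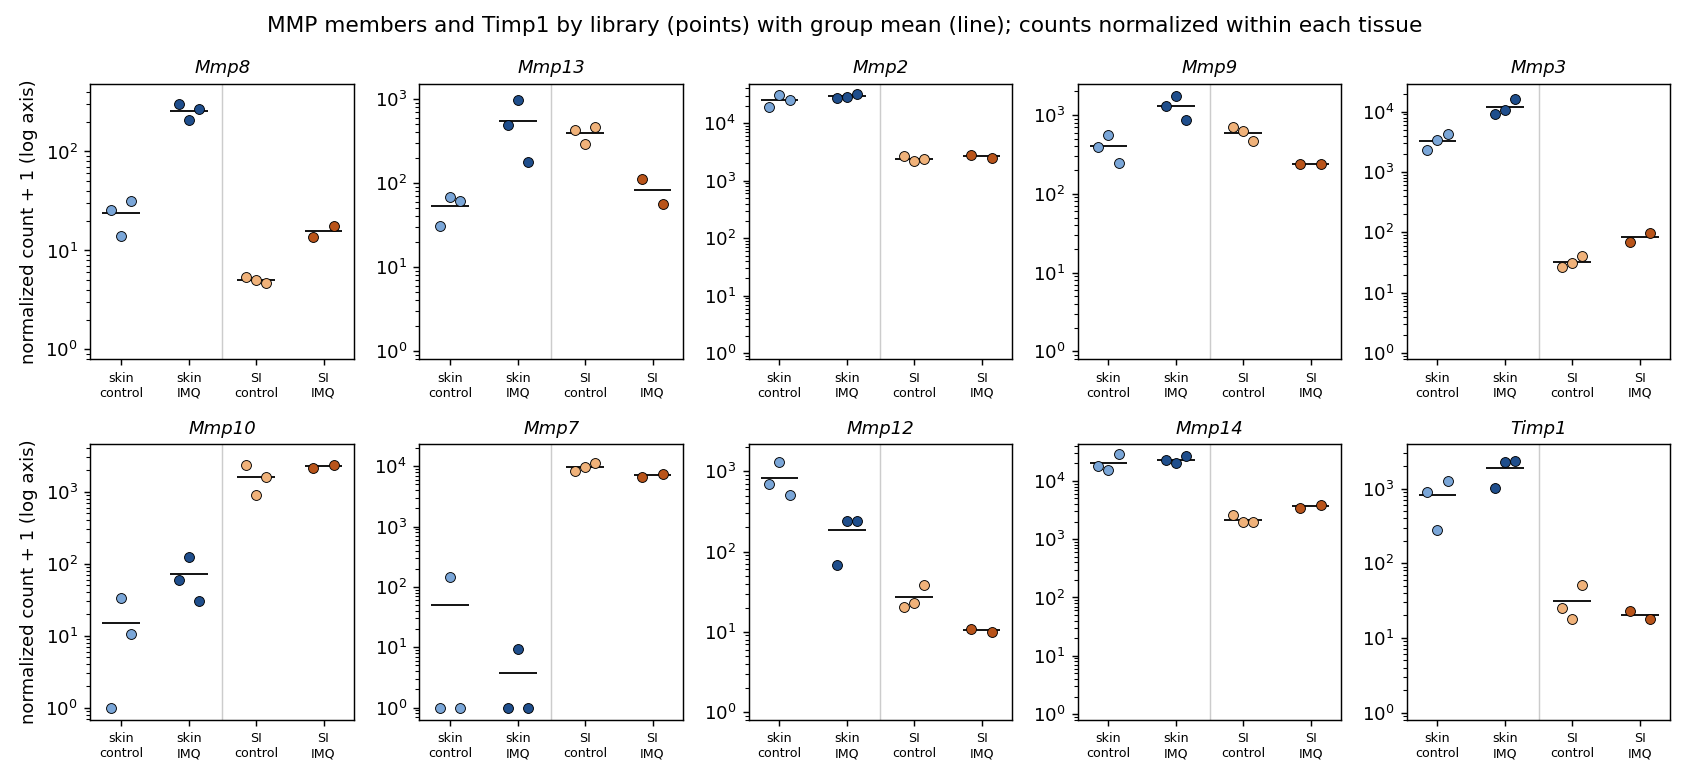
Normalized counts plus 1 (log axis) of the 9 MMP genes and *Timp1* in each of the 11 libraries (points), with the group mean (line), for control and IMQ-treated skin and small intestine (SI). In the skin the groups separated upwards for *Mmp8*, *Mmp13*, *Mmp9* and *Mmp3* and downwards for *Mmp12*. In the small intestine they separated downwards for *Mmp9*, *Mmp13*, *Mmp7* and *Mmp12* and upwards for *Mmp8*, *Mmp3* and *Mmp14*. Not all of these genes passed the test. *Mmp7* was at 0 in 4 of the 6 skin libraries (counts normalized within each tissue).

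The sum of all 23 MMP genes was made of different genes in the 2 tissues. In control skin *Mmp2* and *Mmp14* took 37.9% to 52.5% and 21.0% to 34.9% of the summed FPKM, and *Mmp3* took 8.94% to 11.03%. In IMQ-treated skin the share of *Mmp3* was 20.6%, 23.8% and 28.7%, above each control. In the small intestine *Mmp7* alone took 65.2%, 75.9% and 76.2% in control mice and 60.9% and 63.3% in IMQ-treated mice. The summed FPKM of the MMP genes was 280.4, 337 and 414 in control skin and 425, 455 and 590 in IMQ-treated skin, without overlap. Divided by the summed FPKM of the 4 TIMP genes, it was 1.62 to 1.74 in control skin and 2.61 to 2.84 in IMQ-treated skin. The intestinal ratio was 9.18 to 11.9 in control mice and 7.41 and 11.6 in IMQ-treated mice, which overlapped. The sums mix genes of different substrates, and neither they nor the ratios were tested.

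**Figure D2:**
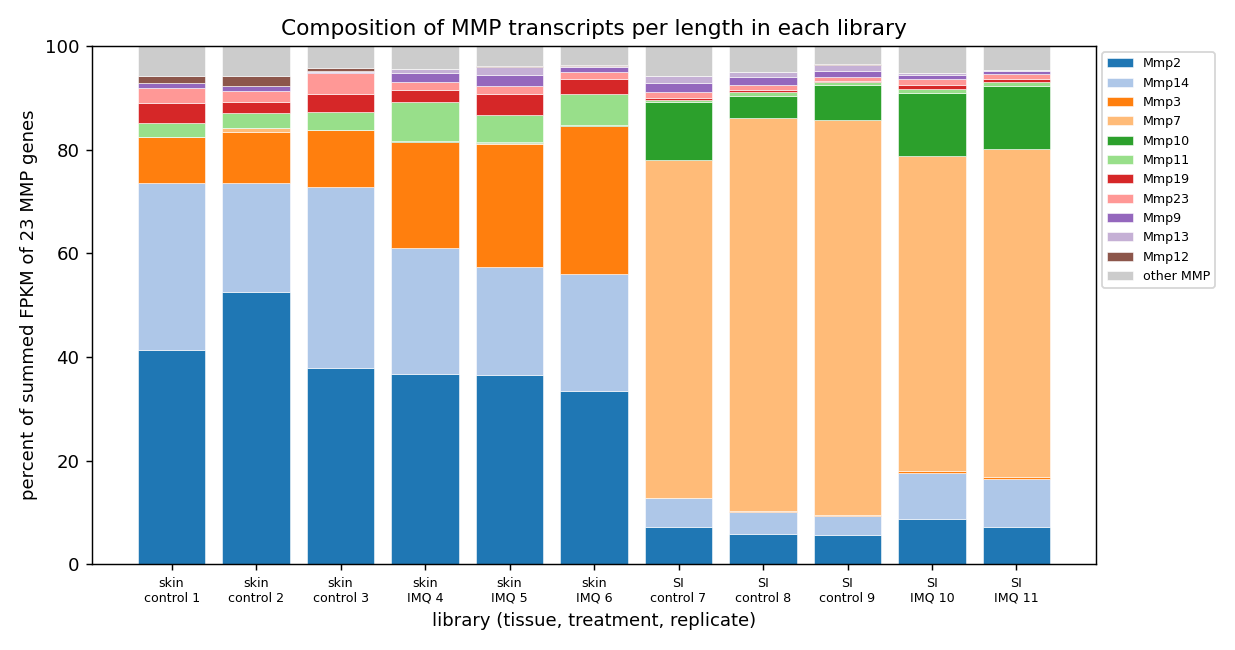
Share of each MMP gene in the summed FPKM of 23 MMP genes (percent), 1 bar for each library of skin and small intestine (SI). *Mmp2*, *Mmp14* and *Mmp3* made up most of the bars of skin, with *Mmp3* at 20.6% to 28.7% in the IMQ libraries, and *Mmp7* made up 60.9% to 76.2% of those of the small intestine.

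IMQ-treated and control mice were compared in each tissue by edgeR's quasi-likelihood test on the deposited counts, with Benjamini-Hochberg adjustment over all genes with a count in every library of the tissue, and a gene is said to have risen or fallen where its adjusted p was under 0.05. The members were listed with earlier results of these contrasts known, so their calls describe their place among all genes and support nothing further. In the skin 8 of the 10 members had a count in every library. *Mmp8*, *Mmp13*, *Mmp3* and *Mmp9* rose and 0 fell (1 of the 8 lower at an unadjusted p under 0.05, and *Mmp12* by DESeq2), compared with 4.05% of all 20512 genes tested that rose and 2.69% that fell. The median log2 fold change was 1.46 over the 8 members and -0.01 over all genes tested. In the small intestine all 10 members were tested, of which *Mmp8* rose, where 2.77% of the 19965 genes did, and *Mmp9* and *Mmp13* fell, where 0.170% did. The median log2 fold change was -0.17 over the members and -0.02 over all genes. Per-library values below are normalized counts, on the scale of the tissue's mean library. In bulk tissue, fewer cells of a type and less RNA per cell cannot be told apart.

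The libraries had 44995414 to 58526384 counts, and each pair within a group differed by more than sampling noise. Summed FPKM of 8 keratinocyte markers was 5061 to 13216 in skin but 19.4 to 31.97 in small intestine, and that of 10 enterocyte markers was 13014 to 27972 in small intestine but 17.6 to 271 in skin, so the labelled tissues held their markers. Control replicate 2 of the skin stood apart. It had a count for 20 of 21 gut genes, with a median of 1.43% relative to control small intestine, compared with at most 0.0373% in the other skin libraries. Its hair follicle markers summed to 20.1 FPKM, compared with 618 and 1027 in the other controls and 11.2 to 13.6 in IMQ-treated skin. For the 8 members tested in the skin, and for *Mmp11*, *Timp3* and *Reck*, the log2 fold change is therefore also given without it.

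The collagenases cut fibrillar collagen and were the members with the largest log2 fold changes in the skin. *Mmp8*, the collagenase stored in neutrophil granules, had 24.4, 13.1 and 30.5 normalized counts in control skin and 302, 207 and 265 in IMQ-treated skin. Every IMQ library was above every control. The log2 fold change was 3.49 (SE 0.36, edgeR adjusted p = 0.00456), and 3.23 (adjusted p = 0.00504) without control replicate 2. Intestinal *Mmp8* had 4.34, 4.03 and 3.69 normalized counts in control mice and 12.7 and 16.6 in IMQ-treated mice, again without overlap. The log2 fold change of 1.83 (SE 0.35, edgeR adjusted p = 0.0425) rested on 4 reads in each control library and 14 and 15 in the IMQ libraries. The call was lost in each of the 5 fits without 1 library, with adjusted p of 0.0791 to 0.198, and was kept in 1 of 8 other models.

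Most neutrophil markers tested moved with *Mmp8* in the skin. The 13 markers summed to 19.1 to 20.8 FPKM in control skin and 7133 to 8812 in IMQ-treated skin. Of the 10 tested 7 rose, compared with 4.05% of all genes tested. By edgeR 0 fell, with 1 lower at an unadjusted p under 0.05 and 1 called lower by DESeq2. *Mpo* went down without passing the edgeR test (log2 fold change -2.34, SE 0.65, adjusted p = 0.0851). *Ly6g*, not tested in the skin, had 0.905 ± 1.57 normalized counts in control and 5.21 ± 4.73 in IMQ-treated mice (SD, n = 3 each). The calprotectin subunits *S100a8* and *S100a9* rose by 10.16 and 9.46 on the log2 scale, but they are also made by inflamed keratinocytes. The sum in IMQ-treated skin was largely theirs. Their means there were 74416 and 124414 normalized counts, before *Stfa2* with 4160 and *Csf3r* with 3727. In the small intestine the same list summed to 7.86 to 8.22 FPKM in control and 15.2 and 15.8 in IMQ-treated mice. Of 5 markers tested there 1 rose, compared with 2.77% of all genes tested. It was the G-CSF receptor *Csf3r* (log2 fold change 3.21, SE 0.23, edgeR adjusted p = 4.86e-04). The defining markers *Ly6g* and *Ngp* were at 0 in both IMQ libraries. The part of neutrophils in the values of *Mmp8* was not tested.

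*Mmp13*, the main collagenase of rodents, which also cuts type II collagen, responded in opposite directions in the 2 tissues. In control skin it had 29.9, 66.5 and 59.3 normalized counts, and in IMQ-treated skin 489.6, 984 and 178. All IMQ values were above all control values, although the IMQ libraries differed widely among themselves. The log2 fold change in the skin was 3.41 (SE 0.66, edgeR adjusted p = 0.0315), and 3.62 (adjusted p = 0.0441) without control replicate 2. Intestinal *Mmp13* had 426, 287 and 463 normalized counts in control mice and 109 and 55.4 in IMQ-treated mice, without overlap. It fell by 2.24 on the log2 scale (SE 0.37, edgeR adjusted p = 0.0233). The call in the skin was lost without control replicate 1 or 3 or IMQ replicate 4 or 5 (adjusted p 0.0746 to 0.114), and that in the small intestine without control replicate 9 (0.0877) or IMQ replicate 11 (0.116).

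The gelatinases cut denatured collagen and type IV collagen of basement membranes. *Mmp9*, the gelatinase of leukocytes and activated epithelium, had 392, 563 and 244 normalized counts in control skin and 1319, 1743 and 876 in IMQ-treated skin. The groups did not overlap, and the log2 fold change was 1.72 (SE 0.36, edgeR adjusted p = 0.0404). Without control replicate 2 it was 2.05 (adjusted p = 0.0225), whereas leaving out any other library of the skin gave an adjusted p of 0.0512 to 0.145. Intestinal *Mmp9* had 708, 621 and 468 normalized counts in control mice and 236 in each of the 2 IMQ libraries. Both IMQ values were below all controls, and *Mmp9* fell by 1.34 on the log2 scale (SE 0.23, edgeR adjusted p = 0.0261). The call was lost without control replicate 8 (adjusted p = 0.0806), IMQ replicate 10 (0.180) or IMQ replicate 11 (0.167), with log2 fold changes of -1.50 to -1.20 over the fits with a library left out.

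*Mmp2*, the gelatinase made constitutively by fibroblasts, had 18634, 30512 and 24908 normalized counts in control skin and 27367, 28022 and 32441 in IMQ-treated skin. The groups overlapped and the log2 fold change was 0.25 (SE 0.20, edgeR adjusted p = 0.524), and 0.43 (adjusted p = 0.193) without control replicate 2. The intestinal values were 2673, 2194 and 2338 in control mice and 2766 and 2480.4 in IMQ-treated mice, with a log2 fold change of 0.13 (SE 0.13, adjusted p = 0.804). Of 10 fibroblast markers 0 were called by edgeR in the skin, with 2 at an unadjusted p under 0.05 and 1 called by DESeq2. They summed to 1576 to 2809 FPKM in control skin and 1652 to 2055 in IMQ-treated skin.

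The stromelysins have broad substrates and also activate other MMP proenzymes. *Mmp3* had 2361, 3388 and 4249.5 normalized counts in control skin and 8999, 10736 and 16301 in IMQ-treated skin. Each IMQ library was above every control, and *Mmp3* was the most abundant of the members that rose. The log2 fold change was 1.85 (SE 0.29, edgeR adjusted p = 0.0182), 1.86 (adjusted p = 0.0298) without control replicate 2, and not called without control replicate 1 (0.0632) or IMQ replicate 5 (0.0646). Intestinal *Mmp3* had 26.0, 30.2 and 39.7 normalized counts in control mice and 69.0 and 98.7 in IMQ-treated mice. These groups did not overlap either, but the log2 fold change of 1.38 (SE 0.33) had an edgeR adjusted p of 0.0995, while DESeq2 called it (adjusted p = 0.0171).

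*Mmp10*, the stromelysin of migrating wound-edge keratinocytes, was scarce in the skin and abundant in the small intestine. In control skin it had 0, 30 and 11 reads, and in IMQ-treated skin 53, 119 and 28, so the groups overlapped through control replicate 2. The 0 removed *Mmp10* from the test of the skin. Without the filter on low counts its log2 fold change there was 2.33 (SE 1.09, edgeR adjusted p = 0.329). Relative to control small intestine, *Mmp10* stood at 2.13% in control replicate 2, whose gut genes had a median of 1.43%. In the IMQ libraries of the skin it stood at 3.73%, 8.09% and 2.02%, where the median of the gut genes was at most 0.0373%. Intestinal *Mmp10* had 2345, 900.3 and 1572 normalized counts in control mice and 2139.7 and 2365 in IMQ-treated mice, which overlapped (log2 fold change 0.49, SE 0.34, adjusted p = 0.675).

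*Mmp7*, the matrilysin of Paneth cells, had 8456 to 11079.8 normalized counts in control small intestine and 6669 and 7540.0 in IMQ-treated mice. Both IMQ values were below the 3 controls, yet the log2 fold change of -0.46 (SE 0.16) had an edgeR adjusted p of 0.273. The 11 Paneth cell markers summed to 26244 to 29702 FPKM in control mice and 21068 and 21934 in IMQ-treated mice. Of the 9 tested 0 were called by edgeR, with 1 higher and 2 lower at an unadjusted p under 0.05, whereas DESeq2 called 1 higher and 3 lower. The part of Paneth cells in the values of *Mmp7* was not tested. In the skin *Mmp7* had 133 reads in control replicate 2, 8 in IMQ replicate 5 and 0 in the other 4 libraries. The value of control replicate 2 was 1.53% of that in control small intestine, close to the 1.43% of the other gut genes there, so no response in the skin is given for *Mmp7*.

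*Mmp12*, the elastase of macrophages, was lower in IMQ-treated mice in both tissues without passing the test. In control skin it had 690.4, 1307 and 509.9 normalized counts and in IMQ-treated skin 67.8, 242 and 238, so the groups did not overlap. The log2 fold change was -2.19 (SE 0.55, edgeR adjusted p = 0.0639), and -1.71 (adjusted p = 0.0891) without control replicate 2, while the Wald test of DESeq2 called it (adjusted p = 4.23e-04). Intestinal *Mmp12* had 19.5, 22.2 and 37.9 normalized counts in control mice and 9.99 and 8.87 in IMQ-treated mice, with a log2 fold change of -1.48 (SE 0.43, edgeR adjusted p = 0.176). As a sum, macrophage markers did not share this direction. They summed to 510.1 to 742 FPKM in control skin and 1165 to 1546 in IMQ-treated skin, and to 252 to 351 and 870.3 to 938 FPKM in the small intestine. Of these markers 5 of 12 tested rose in the skin, as did 5 of 10 in the small intestine, and 0 fell by edgeR, DESeq2 or an unadjusted p under 0.05. The complement gene *C1qb* rose by 1.59 (SE 0.19, edgeR adjusted p = 0.00713) and 2.83 (SE 0.23, adjusted p = 8.64e-04) on the log2 scale.

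*Mmp14* encodes the membrane-type MMP that activates pro-MMP-2 at the cell surface. In the skin it had 17898, 15109.6 and 28382 normalized counts in control mice and 22399, 19866 and 27113 in IMQ-treated mice, which overlapped. Its log2 fold change was 0.18 (SE 0.26, edgeR adjusted p = 0.738), and 0.0011 (adjusted p = 0.998) without control replicate 2. The small intestine had 2569, 1935 and 1987 normalized counts in control mice and 3428 and 3898 in IMQ-treated mice. Both IMQ values were above all controls, and the log2 fold change of 0.76 (SE 0.16) had an edgeR adjusted p of 0.0581. DESeq2 called it (adjusted p = 0.00318), as did edgeR without control replicate 7 (log2 fold change 0.91, adjusted p = 0.0139).

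*Timp1*, the inducible inhibitor that binds most secreted MMPs, did not pass the test in either tissue. In control skin it had 904, 281 and 1276 normalized counts and in IMQ-treated skin 1026, 2277 and 2348. Control replicate 2 was the lowest of all skin libraries, and IMQ replicate 4 lay within the range of the controls. The log2 fold change was 1.20 (SE 0.55, edgeR adjusted p = 0.255), 0.79 (adjusted p = 0.245) without control replicate 2 and 1.66 without control replicate 3. Intestinal *Timp1* had 23.9, 17.1 and 49.9 normalized counts in control mice and 21.8 and 16.6 in IMQ-treated mice, which overlapped (log2 fold change -0.66, SE 0.51, adjusted p = 0.719).

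**Figure D3:**
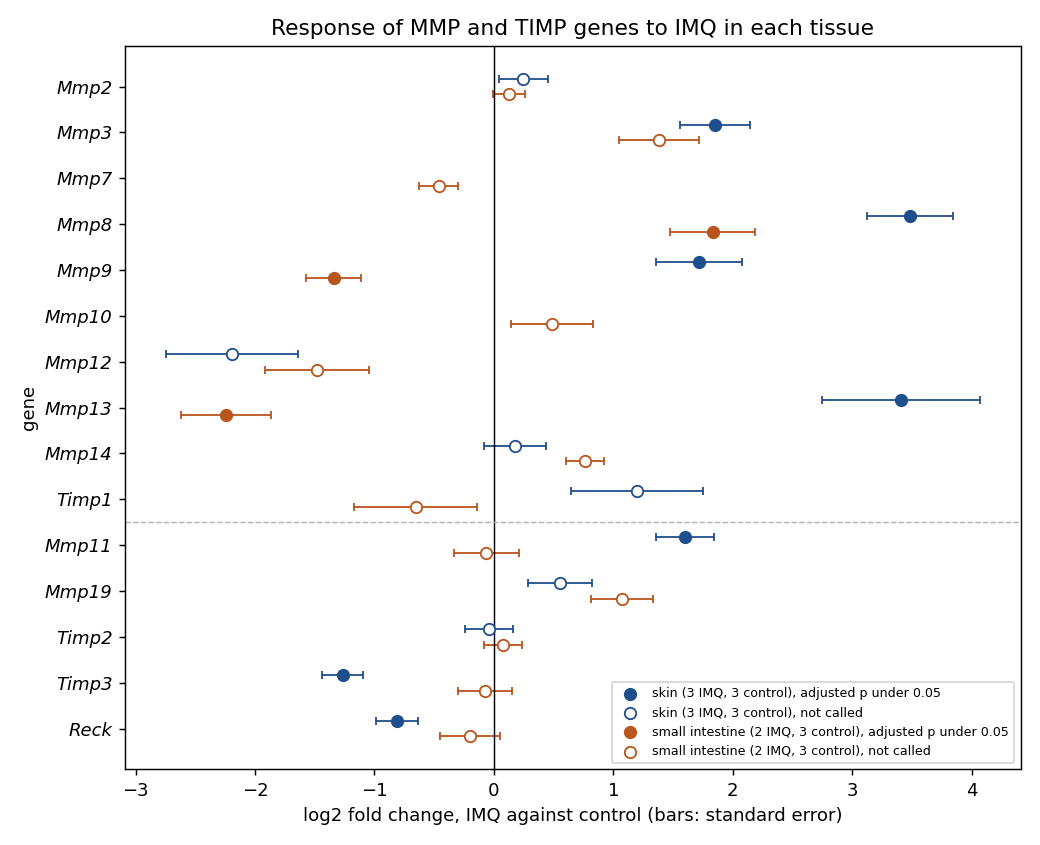
Log2 fold change between IMQ-treated and control mice in skin (blue) and small intestine (orange) with its standard error for the 10 members and, under the dashed line, 5 other genes of the family; filled points had an edgeR adjusted p under 0.05. *Mmp13* stood at 3.41 in the skin but -2.24 in the small intestine and *Mmp9* at 1.72 and -1.34, whereas *Mmp7* and *Mmp10* have no point in the skin because a library had 0 counts.

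Whether the tissues differed in their response was tested as the interaction of tissue and treatment in 1 fit of all 11 libraries, which shares its libraries with both contrasts above. Of the 8 members tested, *Mmp9* and *Mmp13* responded more positively in the skin, compared with 0.856% of 18108 genes, and 0 responded more positively in the small intestine (0 also by DESeq2 and at an unadjusted p under 0.05), compared with 1.70%. The response in the small intestine minus that in the skin was -3.05 on the log2 scale for *Mmp9* (SE 0.50, edgeR adjusted p = 0.0114) and -5.65 for *Mmp13* (SE 0.88, adjusted p = 0.00927). Without control replicate 2 of the skin these were -3.40 (adjusted p = 0.00345) and -5.88 (0.00799). Both calls were lost with 1 IMQ library of the small intestine left out, with adjusted p of 0.0744 and 0.0621 for *Mmp9* and 0.05001 and 0.0621 for *Mmp13*, and held in the other 9 such fits and in all 8 other models. For *Mmp8* the difference was -1.65 (SE 0.57, edgeR adjusted p = 0.167), so its larger log2 fold change in the skin was not shown to differ from that in the small intestine.

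Without IMQ, 2 of the 8 members tested were higher in the small intestine than in the skin and 6 lower, in the same test on the control libraries, compared with 26.2% and 25.7% of 18890 genes. These are the control libraries of the contrasts above. *Mmp3* had the lowest log2 difference, small intestine minus skin (-6.35, SE 0.31, edgeR adjusted p = 6.45e-06), followed by *Mmp12* at -4.63, *Timp1* at -4.39, *Mmp2* at -3.03, *Mmp14* at -2.90 and *Mmp8* at -2.14. *Mmp13* was higher in the small intestine (log2 difference 3.26, SE 0.37, edgeR adjusted p = 2.29e-04). *Mmp9* was higher by 0.92 (SE 0.33, adjusted p = 0.0485), a call that held in 1 of 6 fits without 1 library and in 2 of 8 other models. *Mmp7* and *Mmp10* could be compared without the filter on low counts, with log2 differences of 8.02 (SE 1.64, adjusted p = 0.00636) and 7.22 (SE 0.95, adjusted p = 7.54e-04). Fibroblast markers also differed between the tissues, with 9 of 10 lower in control small intestine.

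**Figure D4:**
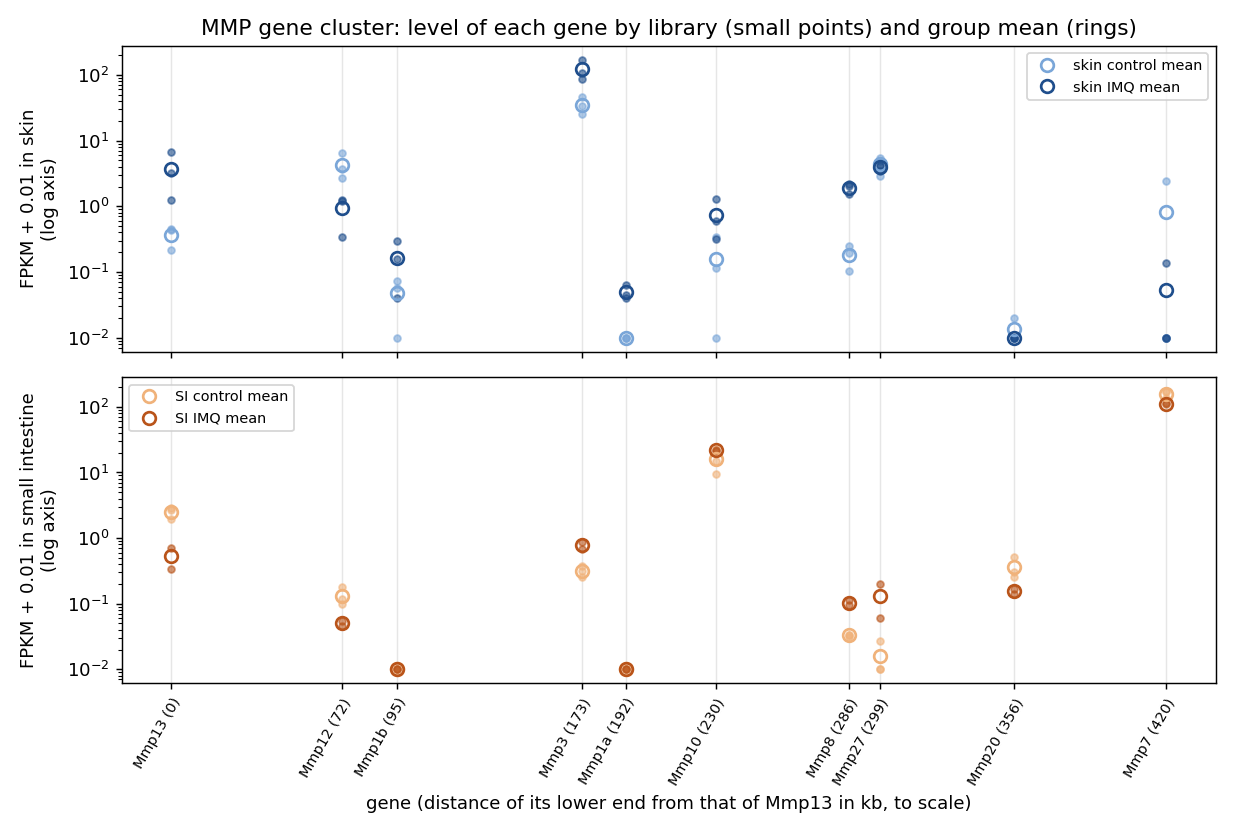
FPKM plus 0.01 (log axis) of the 10 MMP genes of the cluster on chromosome 9, at the distance of each gene from *Mmp13* in kb, in skin (top) and small intestine (bottom); small points are libraries and rings are group means. Neighbours within the cluster differed in level, with *Mmp3* highest in the skin and *Mmp7* highest in the small intestine.

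Of the 18 other genes of the family, which hold the remaining MMPs, the other TIMPs and the membrane-anchored MMP inhibitor *Reck*, 14 were tested in the skin. There *Mmp11* rose, *Timp3* and *Reck* fell, and 11 did not pass the test. Of all genes tested in the skin 4.05% rose and 2.69% fell. The median log2 fold change was -0.07, compared with -0.01 over all genes. *Mmp11*, stromelysin-3, had 899, 1185 and 1619.6 normalized counts in control skin and 4074, 2980.1 and 4206 in IMQ-treated skin, without overlap. Its log2 fold change was 1.60 (SE 0.24, edgeR adjusted p = 0.0152), and 1.58 (adjusted p = 0.0267) without control replicate 2, and the call was lost without control replicate 1 (0.0513) or IMQ replicate 4 (0.0580). *Timp3*, the TIMP that binds to the matrix, had 13269, 17363 and 19345 normalized counts in control skin and 6635, 6543 and 7587 in IMQ-treated skin. All 3 IMQ values were below all controls, and *Timp3* fell by 1.27 on the log2 scale (SE 0.17, edgeR adjusted p = 0.0105), a call that was lost without IMQ replicate 4 (0.0517) or 5 (0.0662). Without control replicate 2 the log2 fold change of *Timp3* was -1.23 (edgeR adjusted p = 0.0144). *Reck* had 1642, 2423 and 2284 normalized counts in control skin and 1151, 1104 and 1364 in IMQ-treated skin, and fell by 0.81 on the log2 scale (SE 0.18, edgeR adjusted p = 0.0428). That call held in 1 of 6 fits with a library left out, the one without control replicate 1, and without control replicate 2 the log2 fold change was -0.70 (adjusted p = 0.0564).

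*Timp2*, the most abundant TIMP of the skin, and *Timp4* did not pass the test. *Timp2* had 119.7 ± 19.98 FPKM in control skin and 113.3 ± 23.05 in IMQ-treated skin, with a log2 fold change of -0.04 (SE 0.20, edgeR adjusted p = 0.938). *Timp4*, at 2.06 ± 1.12 FPKM in control skin, had a log2 fold change of 0.66 (SE 0.47, adjusted p = 0.454). The share of *Timp1* in the summed FPKM of the TIMP genes was 11.3%, 2.69% and 11.7% in control skin and 13.5%, 26.7% and 22.2% in IMQ-treated skin. Among the remaining MMP genes with a mean of at least 1 FPKM in a group, log2 fold changes in the skin were 0.55 for *Mmp19* (adjusted p = 0.278), 1.01 for *Mmp25* (0.170), -0.57 for *Mmp15* (0.194), -0.39 for *Mmp23* (0.510), -0.11 for *Mmp27* (0.854) and 0.16 for *Mmp28* (0.838). *Mmp1a*, a rodent interstitial collagenase gene, had 0 reads in each control library of the skin and 6, 4 and 4 in the IMQ libraries.

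In the small intestine 13 of the 18 genes were tested and 0 were called by edgeR, where 2.77% of all genes tested rose and 0.170% fell. At an unadjusted p under 0.05, 1 was higher and 1 lower, and DESeq2 called 1 higher. *Mmp19* had a log2 fold change of 1.07 (SE 0.26, edgeR adjusted p = 0.100). *Timp3* had 8.53, 11.7 and 8.19 FPKM in control mice and 11.1 and 6.34 in IMQ-treated mice, which overlapped. For *Mmp11* the response in the small intestine minus that in the skin was -1.66 on the log2 scale (SE 0.35, edgeR adjusted p = 0.0370), a call that held in 4 of 11 fits without 1 library. For *Timp3* the difference between the tissues was 1.20 (SE 0.29, adjusted p = 0.0589) and did not pass the test.

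Genes that activate, carry or restrain MMPs outside the family were counted from a list of 24. In the skin 6 of 22 tested rose and 1 fell. *Lcn2*, the lipocalin whose human form makes a complex with MMP-9, rose by 5.22 on the log2 scale (SE 0.37, edgeR adjusted p = 0.00218). In the small intestine 2 of 20 rose, the lysosomal protease *Ctss* by 0.92 (SE 0.13, adjusted p = 0.0110) and the hyaluronan receptor *Cd44* by 0.74 (SE 0.13, adjusted p = 0.0276). Of the related ADAM and ADAMTS proteases, 2 of 14 rose in the skin, *Adam8* by 1.29 (SE 0.23, adjusted p = 0.0265) and *Adam15* by 0.51 (SE 0.11, adjusted p = 0.0462), and 1 of 16 in the small intestine. Of the matrix substrates, 1 of 18 fell in the skin, *Fn1*, which encodes fibronectin, by 0.97 (SE 0.16, adjusted p = 0.0207), and 1 of 19 rose in the small intestine, *Col4a1* of the basement membrane, by 0.87 (SE 0.15, adjusted p = 0.0269). Over all genes tested 4.05% rose and 2.69% fell in the skin and 2.77% rose in the small intestine. The ADAM genes of the small intestine had 1 call, as did the matrix substrates in each tissue. These counts were within 1 gene of the number the shares give, which was not so for the 2 ADAM genes of the skin. All these adjusted p-values are from the edgeR fits.

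Known inducers of MMP transcription were counted in the same way. In the skin 7 of 25 tested rose and 0 fell (0 also at an unadjusted p under 0.05 and by DESeq2), compared with 4.05% and 2.69% of all genes tested. The median log2 fold change was 0.74, compared with -0.01 over all genes. The 2 largest log2 fold changes among those with a mean of at least 50 normalized counts were those of the AP-1 subunit *Fosl1* (4.30, SE 0.91, edgeR adjusted p = 0.0403) and the EGF receptor ligand *Hbegf* (2.94, SE 0.58, adjusted p = 0.0336). The other Fos and Jun genes of the list (*Fos*, *Fosb*, *Fosl2*, *Jun*, *Junb* and *Jund*), singled out after their values were seen, did not pass the test, with log2 fold changes of -0.12 to 1.13. In the small intestine 2 of 23 rose, where 2.77% of all genes tested did. They were *Il1b*, by 3.16 (SE 0.38, edgeR adjusted p = 0.00519), and *Tgfb1*, by 1.65 (SE 0.20, adjusted p = 0.00480). There *Fosl1* was not tested because a library had 0 counts. The inducers *Il17a*, *Il17f* and *Il22* were at 0 in all 3 control libraries of the skin and were not tested. In IMQ-treated skin *Il17a* had 139 ± 103 normalized counts (SD, n = 3), *Il17f* 277 ± 269 and *Il22* 16.4 ± 16.99, with *Il22* at 0 in at least 1 IMQ library.

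Likeness was measured as Pearson's r of log2 normalized counts over the 11 libraries after the mean of each tissue was subtracted, among genes with a mean of at least 50 normalized counts in each tissue. The points share libraries and the IMQ treatment, so r is a description. The genes most like *Mmp8* were *Gm5150* (r = 0.976), the lipopeptide receptor *Tlr1* (0.974) and *Cdk9* (0.973). Those most like *Mmp3* were the IL-17 receptor subunit *Il17ra* (0.966), *Rhog* (0.954) and *AI413582* (0.951). Those most like *Mmp12* were *Dis3l2* (0.941) and the dendritic cell and macrophage lectins *Cd209a* (0.935) and *Mgl2* (0.933). For *Mmp13* they were the B cell lectin *Cd22* (0.934), *Taf4b* (0.933) and *Shf* (0.930), and for *Mmp9* *Fam210a* (0.963), *Wdr61* (0.957) and *Pdzk1ip1* (0.949). *Mmp2* was most like *Ltbp2* (0.968), a matrix protein of the latent TGF-β binding family, *Mmp14* most like *Rab4b* (0.977), *Timp1* most like *Ripk3* (0.963) and *Mmp10* most like *5033421B08Rik* (0.921). *Mmp7* was most like the gut genes *Defa35* (0.998), *Tff3* (0.997) and *Hnf4a* (0.997), but its values in the skin were 0 outside control replicate 2 and IMQ replicate 5.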

How the data were processed

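Total RNA of mouse skin and small intestine was sequenced as 100-bp paired-end reads from stranded mRNA libraries. Per the submitters' notes and methods, the reads were converted with bcl2fastq 2.20.0, trimmed with Trimmomatic, aligned to mm10 with HISAT2 2.1.0 and assembled and quantified with StringTie 2.1.3b. The authors deposited 1 table with the whole-number read count of each gene and library, without normalization. The same deposited table holds FPKM, scaled by transcript length and library size by the authors. A further measure, TPM, was also made by the authors and was left untested. How the whole-number counts treated strand and reads that match several genes is not given in the sources used here, so counts of near-identical genes (*Mmp1a* and *Mmp1b*, the defensins) are uncertain. Libraries had 44995414 to 58526384 counts, so the spread between mice limited the precision except for genes with few reads.

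Genes counted at least once in all libraries of a comparison (minimum 1) were normalized by relative log expression and tested with edgeR 4.0.16 (quasi-likelihood) in R 4.3.3, per tissue, between the control tissues and for the interaction, with p-values adjusted by Benjamini-Hochberg across the tested genes. The study used the Wald test of DESeq2. DESeq2 1.42.0, limma 3.58.1 (voom, and log2 of FPKM plus 0.01 or plus 1), TMM and upper-quartile normalization, filterByExpr, no filter, 1 fit of all 11 libraries and each library left out were alternatives, and those of *Mmp11*, *Timp3* and *Reck* were added after the data were seen. The members and the gene lists were chosen with earlier results of these data known. All members are named, with family genes that were called or reached a mean of 1 FPKM, the 2 largest called changes per list and direction at a mean of at least 50 normalized counts (not every list is reported, and 1 gene that met the rule is not reported here), and the 3 genes most like a member. Positions and promoters are those of RefSeq for GRCm38.p6, matched by Entrez Gene identifier, with a promoter window for 8 of the 10 members. Summaries were made with Python 3.11.15 and pandas 2.3.3.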

Additional observations from a re-analysis of the deposited data

Results flagged for a closer look

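For 3 genes of the family the response to IMQ differed between the tissues by a test of the difference itself. The response in the small intestine minus that in the skin, on the log2 scale, was -3.05 for *Mmp9* (SE 0.50, edgeR adjusted p = 0.0114), -5.65 for *Mmp13* (SE 0.88, edgeR adjusted p = 0.00927) and -1.66 for *Mmp11* (SE 0.35, edgeR adjusted p = 0.0370). For *Mmp9* and *Mmp13* the log2 fold changes within the tissues had opposite signs, 1.72 and 3.41 in the skin but -1.34 and -2.24 in the small intestine. *Mmp11* stood at 1.60 in the skin but -0.06 in the small intestine. All 3 calls were lost with either IMQ library of the small intestine left out, and that of *Mmp11* held in 4 of 8 other models. With 2 or 3 libraries in a group, no single library could be tested as an outlier.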

How the results depend on the processing

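With 2 or 3 libraries in a group, single libraries moved many calls. The 1382 genes called in the skin became 258 to 2521 with a library left out (258 without IMQ replicate 5, 2521 without control replicate 2), 3030 with DESeq2 and 894 on log2(FPKM + 1). The 588 of the small intestine became 294 to 801 with a library left out and 1206 with DESeq2. The 462 of the interaction became 144 to 1072 with a library left out, 1281 with DESeq2 and 301 without a filter. The 4 members called in the skin became 1 to 4 with a library left out (1 without control replicate 1 or IMQ replicate 5, 2 without control replicate 3 or IMQ replicate 4) and 2 on log2(FPKM + 1). The 3 of the small intestine became 0 to 3 with a library left out (1 without replicate 8, 9 or 10 and 0 without replicate 11), 1 on log2(FPKM + 0.01), 1 on log2(FPKM + 1) and 0 in 1 fit of all 11 libraries. The 2 of the interaction became 0 to 2 with a library left out, 0 without IMQ replicate 10 or 11, where the remaining IMQ library is assumed to vary like the other groups. The interaction of *Mmp2*, -0.11 and not called, was -0.32 to 0.074 with a library left out and turned positive without skin control replicate 1. Of the other single-member alternatives, 465 kept direction and call, 51 lost the call and 6 gained it. DESeq2 gave no adjusted p for *Mmp8* in the small intestine, whose few reads limit it. The causes were not tested. No paired analysis was possible because the groups share no replicate number.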

Other observations

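Other cell type markers moved with the MMP genes in the skin, where 4.05% of all genes tested rose and 2.69% fell. Of 9 markers of wound and hyperproliferative keratinocytes 8 rose, with a median log2 fold change of 4.63 compared with -0.01 over all genes tested. Among these are *S100a8* and *S100a9*, which were also counted as neutrophil markers, so the counts of both lists share them. Of 9 hair follicle markers 4 fell, among them the morphogen *Shh* (log2 fold change -6.76, SE 1.52, edgeR adjusted p = 0.0470) and the transcription factor *Lhx2* (-3.44, SE 0.52, adjusted p = 0.0150). Control replicate 2 had a hair follicle sum of 20.1 FPKM, near the 11.2 to 13.6 of IMQ-treated skin. The other controls had 618 and 1027, and fits of these markers without control replicate 2 are not given. Of 5 mast cell markers 3 rose, including the proteases *Cma1* (1.01, SE 0.14, edgeR adjusted p = 0.0108) and *Tpsb2* (1.06, SE 0.21, adjusted p = 0.0336). The part of these cells in the values of the MMP genes was not tested.

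Of the 7 eosinophil markers, 1 of 4 tested in the skin fell and 1 of 5 tested in the small intestine rose. The median log2 fold changes were -0.87 and -0.30. Over all genes tested 2.69% fell in the skin and 2.77% rose in the small intestine. Each count was within 1 gene of the number these shares give. Both calls were the ribonuclease *Ear2*, which fell in the skin (log2 fold change -3.25, SE 0.45, edgeR adjusted p = 0.0116) and rose in the small intestine (2.13, SE 0.32, adjusted p = 0.0136). Its relative *Ear1*, which was not tested, had 3.23 ± 3.52 normalized counts in control skin and 71.8 ± 37.8 in IMQ-treated skin (SD, n = 3 each), without overlap. Of 6 endothelial markers 3 rose in the skin, as did 1 in the small intestine, compared with 4.05% and 2.77% of all genes tested. The intestinal count was within 1 gene of the number its share gives. The adhesion molecule *Pecam1* rose in both, by 1.16 (SE 0.15, edgeR adjusted p = 0.00996) and 1.84 (SE 0.14, adjusted p = 6.68e-04) on the log2 scale.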
